A study of Rattus norvegicus and Mus musculus with 12 samples.

Results

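The response of mouse chondrocytes to interleukin-1β (IL-1β) was described over every Ensembl gene of the mouse table, including those with no gene of the same symbol in the rat table of the series. The 6 mouse libraries, of 12 in the series, fall into a control group, MC, and an IL-1β group, MM, with 3 libraries each. All came from primary articular chondrocytes of newborn C57BL/6 mice, taken within 24 h of birth and used at passage 1. MM cells received IL-1β at 20 ng/ml for 24 h, and MC cells did not receive it. The strain field of the labels runs upwards from C57BL/6 within each group, starting a step later in MM, and the strain was taken here from the study's methods. The mouse table holds 28603 genes, of which 27392 had at least 1 count and 14774 had enough counts to be tested.

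IL-1β is a cytokine that joint tissues and leukocytes release in inflammation and that is widely used on cultured chondrocytes as a model of osteoarthritis. It binds the receptor IL1R1, whose adaptors MyD88 and the IRAK kinases activate NF-κB and the MAP kinases, and these switch on cytokines, chemokines, prostaglandin and nitric oxide synthesis and proteases that degrade cartilage matrix. Chondrocytes are the cells of cartilage, where they secrete type II collagen and aggrecan under the control of SOX9. A culture of this kind is a population of cells on plastic with a single dose and time, so the values describe the state at the end of the exposure.

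Total counts ranged from 16841580 to 17957308 in MC and from 17482589 to 20048322 in MM. A gene was called where edgeR's quasi-likelihood test gave a Benjamini-Hochberg adjusted P below 0.05, the log2 fold change (MM minus MC) was at least 0.85 in size and the FPKM (fragments per kilobase of gene, relative to the library total) was at least 1 in at least 1 mouse library. Below, "rose" and "fell" are used of called genes only. By this rule 1862 genes rose (12.6% of those tested) and 1917 fell (13.0%). The counts given for gene lists below stand against these shares. Scaled by library size alone, 1449 rose and 2733 fell, so the balance of rises and falls depends on the scaling. Limma on log2(FPKM + 1), which changes the test, the scaling and the pseudocount together, called 1154 up and 1802 down. At the adjusted P alone, 5521 genes were higher (37.4%) and 5564 lower (37.7%), and the libraries of the groups did not overlap in FPKM for 11867 genes (80.3%), so the size criterion decides most calls. Of the 3779 called genes, 3758 did not overlap, so non-overlap, where stated below, adds little to a call. The biological coefficient of variation was 0.0318, and the P values measure only the spread between these samples, since the sources say that the samples were independent but not whether they came from separate litters or cultures. For any gene taken alone, exact permutation of 3 libraries against 3 has a smallest possible P of 0.1.

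**Figure D1:**
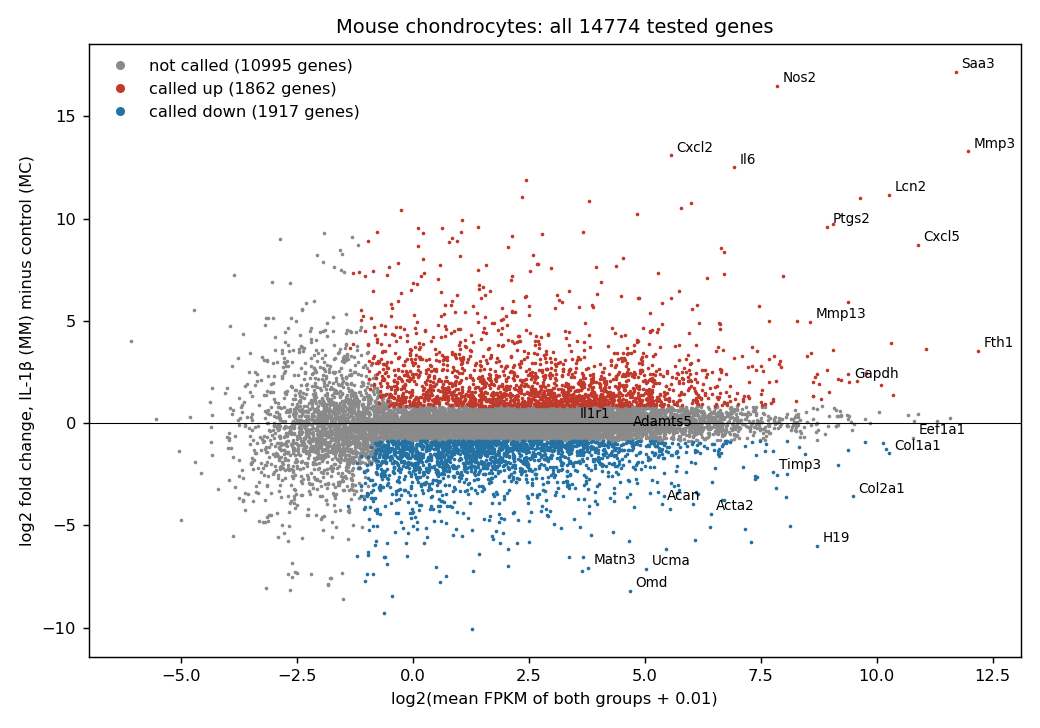
Log2 fold change (MM minus MC, vertical axis) against log2 of the mean FPKM of both groups plus 0.01 (horizontal axis) for the 14774 tested genes, with 1 point per gene. The 1862 genes that rose are red, the 1917 that fell are blue, and Saa3, Nos2 and Mmp3 stand at the upper right.

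The composition of the RNA changed with the treatment. The genes that rose held from 9.25 to 9.36% of the counts of an MC library and from 33.9 to 34.1% of those of an MM library, while the genes that fell went from 19.8% to between 5.12 and 5.17%. TMM scaling factors were 1.10 in each MC library and between 0.905 and 0.911 in the MM libraries. FPKM carry no such scaling, so a fitted log2 fold change is 0.279 higher than the log2 ratio of mean FPKM for a well-measured gene. By fitted fold change, 758 of the genes that rose did so at least 4-fold, 129 at least 32-fold and 39 at least 256-fold. Of those that fell, 628 did so at least 4-fold, 64 at least 32-fold and 4 at least 256-fold. A fitted value against a group with 0 counts is no bound, and with such genes set to a floor of 3 counts over the group the numbers were 125 and 27 for rises of 32-fold and 256-fold and 61 and 1 for falls, with the 4-fold numbers as before. Absolute amounts of RNA per cell were not measured, and in bulk libraries fewer cells of a type and less RNA per cell cannot be told apart.

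The cells expressed the genes that define chondrocytes. The FPKM of Col2a1, the gene of type II collagen, was 1347 ± 23.8 in MC and 93.7 ± 2.22 in MM (SD, n = 3 in each group), and Acan, the aggrecan gene, was 78.3 ± 2.74 in MC and 4.22 ± 0.589 in MM. Sox9 was 42.8 ± 0.842 in MC and 16.99 ± 1.38 in MM. Of 12 chondrocyte markers, all were tested, 11 fell and 1, Sox5, rose. Col1a1, the gene of type I collagen, which dominates in fibroblasts and bone, was more abundant per length than Col2a1 in MC, at 1887 ± 20.5 in MC and 558 ± 6.06 in MM. Some defining markers of other cells were close to 0, with 3 counts in all MC libraries and 1 in all MM libraries for Ptprc (CD45, on all leukocytes), 8 counts in all MC libraries and 6 in all MM libraries for Pecam1 (endothelium), and 0 counts in all MC libraries and 1 in all MM libraries for Ckm (muscle). Markers of fibroblasts and stromal cells were present, with Pdgfrb at 78.8 ± 1.24 in MC and 24.5 ± 0.378 in MM and Pdpn at 75.6 ± 2.23 in MC and 413 ± 7.69 in MM, and Cd14, of macrophages and other cells, was 1.87 ± 0.434 in MC and 24.1 ± 0.73003 in MM. The part of other cells in the results was not tested.

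The most abundant transcripts were largely exchanged. The 10 genes with the highest mean FPKM in MC were mt-Co1, Fn1, Eef1a1, Col1a1, Rplp1, mt-Cytb, Thbs1, Sparc, mt-Nd1 and Col2a1, a set made of mitochondrial, translation and matrix genes. In MM they were Fth1, Mmp3, Saa3, Spp1, Cxcl5, Mt1, Lcn2, mt-Co1, Fn1 and mt-Cytb. Fth1, the heavy chain of the iron store ferritin, had FPKM of 858, 913 and 885 in MC1 to MC3 and of 8600.4, 8564 and 8189 in MM1 to MM3 (log2 fold change 3.53 ± 0.03 SE, adjusted P = 5.75e-73). Spp1, which encodes the secreted phosphoprotein osteopontin, had FPKM of 379, 368 and 377 in MC1 to MC3 and of 3915, 3932 and 3798 in MM1 to MM3. Lcn2 encodes lipocalin 2, which binds the iron carriers of bacteria, and had FPKM of 1.36, 1.13 and 1.42 in MC1 to MC3 and of 2444, 2512 and 2454 in MM1 to MM3. In each of these genes every MM library lay above every MC library by several-fold.

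The largest fitted rises among genes reaching a mean FPKM of 10 were those of Saa3, Nos2, Mmp3, Cxcl2, Il6, H2-Q2, Lcn2, Cck, Cxcl1 and Stfa3. Saa3 encodes serum amyloid A3, an acute phase protein that extrahepatic cells secrete, and had FPKM of 0.0672, 0.0684 and 0.0214 in MC1 to MC3 and of 6883, 6629.6 and 6591 in MM1 to MM3 (log2 fold change 17.18 ± 0.06 SE, adjusted P = 3.14e-92). It had 7 counts in all MC libraries and 997796 in all MM libraries. With so few MC counts, the SE above understates the uncertainty. Nos2, the inducible nitric oxide synthase, had 1 count in all MC libraries and 116422 in all MM libraries, a ratio of 128493 (95% counting interval 23062 to 5075240). Mmp3 encodes stromelysin 1, a protease that cleaves aggrecan and activates other matrix metalloproteinases. It had FPKM of 1.26, 0.824 and 0.773 in MC1 to MC3 and of 7974, 8014 and 7912 in MM1 to MM3 (log2 fold change 13.30 ± 0.05 SE, adjusted P = 4.53e-91) and was the second most abundant transcript per length in MM. H2-Q2, a class I-like gene of the major histocompatibility complex, had 0 counts in MC and 1342 in MM, at least 494-fold higher over the group. Cck, the cholecystokinin gene, had 0 and 757 counts and was at least 278-fold higher, and Stfa3, a cysteine protease inhibitor of the stefin A family, had 0 and 656 and was at least 241-fold higher. These limits take 3 counts as the floor of a group, and like the ratios they cover counting error only. H2-Q2, Cck and Stfa3 rank here by fitted values alone, and at these limits they stand below Cxcl3 (10.52), Ccl2 (9.76) and Ptgs2 (9.603).

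Several of these genes have close relatives, so the sequences that reads must tell apart are shown for those that rose most. The first 60 coding bases of the serum amyloid A genes of chromosome 7 and of the CXC chemokine genes of chromosome 5 were taken from the GENCODE M21 transcripts (GRCm38), 5′ to 3′ on the coding strand. Saa3 lies at chr7:46711998-46715700 and Saa1 at chr7:46740497-46742980 on the minus strand, with Saa2 at chr7:46751790-46754313 on the plus strand. Cxcl1 lies at chr5:90891241-90893115, Cxcl2 at chr5:90903871-90905938 and Cxcl3 at chr5:90786103-90789600, all on the plus strand, and all the bases shown are coding exon. Capitals mark the bases that differ, position by position and without gaps, from Saa3 or from Cxcl1.
Saa3: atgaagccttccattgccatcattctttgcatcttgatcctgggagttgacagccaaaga
Saa1: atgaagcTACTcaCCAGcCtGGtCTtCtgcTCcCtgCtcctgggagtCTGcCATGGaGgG
Saa2: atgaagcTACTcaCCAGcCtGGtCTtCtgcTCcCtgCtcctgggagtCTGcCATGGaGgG
Cxcl1: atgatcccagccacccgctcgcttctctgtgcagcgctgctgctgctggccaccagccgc
Cxcl2: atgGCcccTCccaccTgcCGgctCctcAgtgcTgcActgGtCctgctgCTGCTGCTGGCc
Cxcl3: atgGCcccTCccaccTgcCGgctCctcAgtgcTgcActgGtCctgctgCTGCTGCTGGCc
Saa1 and Saa2 print the same 60 bases and differ from Saa3 at 28 of them, while Cxcl2 and Cxcl3 print the same bases and differ from Cxcl1 at 24. Over whole transcripts, 4.15% of the 50-base words of Saa3 also occur in a transcript of another gene, against 31.5% for Saa1 and 29.97% for Saa2, which share most with each other. The share is 0% for Cxcl1, 5.84% for Cxcl2, 4.29% for Cxcl3, 0% for Nos2 and 16.1% for H2-Q2. The counts of Saa1, Saa2 and the class I genes are therefore uncertain, and those of Saa3, Cxcl1 and Nos2 rest mainly on words of their own.

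Most chemokines tested rose. CXC chemokines attract neutrophils where they carry the ELR motif, as Cxcl1, Cxcl2, Cxcl3 and Cxcl5 do. Of 13 CXC chemokines in the table, 9 were tested, of which 7 rose and 2 fell. The median log2 fold change was 5.22, against -0.02 over all tested genes. Members near 0 in MC, such as Cxcl2, passed the count filter through MM alone, so these counts and the median lean towards rises. Other lists with such members lean in the same way. Cxcl1 had FPKM of 1.09, 0.855 and 0.891 in MC1 to MC3 and of 1654, 1588 and 1557 in MM1 to MM3 (log2 fold change 10.998 ± 0.05 SE, adjusted P = 5.72e-84), and Cxcl5 had FPKM of 11.4, 10.9 and 10.3 in MC1 to MC3 and of 3868, 3798 and 3589 in MM1 to MM3 (log2 fold change 8.72). Cxcl3 had FPKM of 0.0668, 0.153 and 0.0478 in MC1 to MC3 and of 110.3, 110.4 and 107 in MM1 to MM3. The ELR chemokines lay near 0 in MC apart from Cxcl5, and in MM Cxcl1 and Cxcl5 were above 1000 FPKM. Cxcl2 had 1 count in all MC libraries and 11168 in all MM libraries, a ratio of 12326 (95% counting interval 2212 to 486891). The members that fell were Cxcl12, the ligand of CXCR4 that holds haematopoietic cells in bone marrow, with FPKM of 63.6, 60.6 and 62.996 in MC1 to MC3 and of 11.4, 11.5 and 11.6 in MM1 to MM3, and Cxcl14 (log2 fold change -0.93). Together the CXC chemokines held from 0.0544 to 0.05703% of the counts of an MC library and from 1.03 to 1.101% of those of an MM library.

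Of 15 CC, CX3C and C chemokines in the table, 7 were tested, of which 5 rose and 1 fell, with a median of 7.22. These numbers too lean towards rises, since members near 0 in MC, such as Ccl20, passed the count filter through MM alone. Ccl2, which attracts monocytes through CCR2, had FPKM of 1.85, 1.2001 and 1.37 in MC1 to MC3 and of 1065, 1055 and 1057 in MM1 to MM3 (log2 fold change 9.76 ± 0.06 SE, adjusted P = 5.04e-79). Ccl7, another monocyte chemoattractant, had FPKM of 4.45, 3.85 and 3.96 in MC1 to MC3 and of 493, 515 and 500.2 in MM1 to MM3 (log2 fold change 7.22), and Ccl5, a T cell and monocyte attractant, had FPKM of 0.548, 0.6804 and 0.464 in MC1 to MC3 and of 69.2, 78.7 and 83.6 in MM1 to MM3 (log2 fold change 7.36). Ccl20, the ligand of CCR6, had 1 count in all MC libraries and 715 in all MM libraries, a ratio of 789 (95% counting interval 141 to 31212). No MC library reached the level of an MM library in any of these genes.

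Of 32 interleukins and colony-stimulating factors in the table, 20 were tested, of which 9 rose and 4 fell, with a median of 1.204. Here again, members near 0 in MC passed the count filter through MM alone, and the numbers lean towards rises. Il6, the cytokine that drives the acute phase response through gp130, had FPKM of 0.0481, 0.0489 and 0.0459 in MC1 to MC3 and of 250.2, 249 and 232 in MM1 to MM3, or 6 counts in all MC libraries and 33875 in all MM libraries (log2 fold change 12.51 ± 0.09 SE, adjusted P = 3.16e-74). Lif, a gp130 cytokine of the same family, had FPKM of 0.752, 0.792 and 0.704 in MC1 to MC3 and of 219, 205 and 198 in MM1 to MM3 (log2 fold change 8.39 ± 0.06 SE, adjusted P = 2.09e-75). Csf3, the granulocyte colony-stimulating factor, had 3 counts in all MC libraries and 2034 in all MM libraries, a ratio of 748 (95% counting interval 256 to 3632). Il17d fell, with FPKM of 8.21, 10.2 and 9.18 in MC1 to MC3 and of 2.15, 1.36 and 2.24 in MM1 to MM3. Tnf, whose product is the other main activator of NF-κB in joints, was below the count filter, with 1 count in all MC libraries and 3 in all MM libraries, so no change was detectable at this depth. Tnf and the other genes in this text that the naming rule does not give were chosen after their values were seen.

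The gene of the IL-1 receptor itself was not called. Il1r1 had FPKM of 11.9, 12.1 and 11.7 in MC1 to MC3 and of 10.6, 9.898 and 10.4 in MM1 to MM3 (log2 fold change 0.07 ± 0.05, adjusted P = 0.149), a difference below the size used for a call. Of 19 IL-1 family receptors and adaptors tested, 6 rose and 1 fell, with a median of 0.33. The gene that fell was Il1rn, which encodes the IL-1 receptor antagonist, with FPKM of 28.01, 28.9 and 28.8 in MC1 to MC3 and of 2.54, 3.13 and 2.697 in MM1 to MM3 (log2 fold change -3.08 ± 0.05 SE, adjusted P = 5.75e-52). Every MM library was below every MC library for Il1rn, by about 10-fold in FPKM. Il1rl1, the IL-33 receptor ST2, rose from a mean FPKM of 3.43 to 67.8 (log2 fold change 4.58), and Irak3, a kinase-like protein that dampens the pathway, rose from 3.47 to 17.03 (2.58). Irak2, an activating member, rose from 2.505 to 5.09 (1.299), which was 0.80 and no call with limma on log2(FPKM + 1).

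Of 25 NF-κB subunits and feedback inhibitors tested, 17 rose, 0 fell and 8 were not called, with a median of 1.52. The inhibitor gene Nfkbia, whose product IκBα holds NF-κB in the cytoplasm, had FPKM of 13.97, 15.2 and 13.9 in MC1 to MC3 and of 98.5, 107 and 109 in MM1 to MM3 (log2 fold change 3.15 ± 0.05 SE, adjusted P = 1.11e-54). Nfkbiz, a nuclear IκB needed for Il6 and Lcn2 in other cells, had FPKM of 3.14, 2.79 and 3.05 in MC1 to MC3 and of 136, 136 and 137 in MM1 to MM3 (log2 fold change 5.78). Zc3h12a encodes Regnase-1, a nuclease that destroys cytokine mRNA, and rose from 3.66 to 74.3 FPKM (4.62). Tnfaip3, which encodes the deubiquitinase A20, rose from 0.343 to 7.18 FPKM (4.66). All of these encode brakes on the pathway or regulators of its output, and all MM libraries were above all MC libraries in each.

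Of 26 AP-1 subunits and dual-specificity phosphatases tested, 20 rose and 0 fell, with a median of 1.71. AP-1 is the transcription factor made of JUN and FOS proteins that the MAP kinases activate. Fosl1, which encodes the subunit FRA1, had FPKM of 7.02, 5.81 and 7.11 in MC1 to MC3 and of 115, 115 and 123.4 in MM1 to MM3 (log2 fold change 4.42 ± 0.06 SE, adjusted P = 2.56e-60), although 57.2% of its exonic bases overlap another gene and its counts are uncertain. Junb had FPKM of 18.5, 17.8 and 15.4 in MC1 to MC3 and of 106, 111 and 111 in MM1 to MM3 (log2 fold change 2.95). Maff, a small MAF protein, rose from 3.59 to 65.3 FPKM (4.46). The phosphatases that switch off MAP kinases included Dusp4, which rose from 0.675 to 8.802 FPKM (3.98), and Dusp6, which acts on ERK, from 5.12 to 44.1 (3.38).

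Of 23 acute phase proteins in the table, 15 were tested, of which 11 rose and 0 fell. The median fitted log2 fold change was 5.36, or 4.73 with Saa4, which had 0 counts in MC, set to its lower bound. Saa4 and other members near 0 in MC passed the count filter through MM alone, so these numbers lean towards rises. Hp, the haemoglobin-binding protein haptoglobin, had FPKM of 7.97, 7.99 and 7.98 in MC1 to MC3 and of 339, 358 and 340.1 in MM1 to MM3 (log2 fold change 5.71 ± 0.05 SE, adjusted P = 1.94e-71), and Ptx3, a pentraxin of innate immunity, had FPKM of 70.9, 71.7 and 67.4 in MC1 to MC3 and of 234, 237 and 225 in MM1 to MM3 (log2 fold change 2.01). Saa1 had 1 count in all MC libraries and 326 in all MM libraries and Saa2 had 1 count in all MC libraries and 192 in all MM libraries, so Saa3 accounted for nearly all serum amyloid A counts in MM. The list held from 0.0293 to 0.0306% of the counts of an MC library and from 2.64 to 2.72% of those of an MM library.

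Of 18 complement genes tested, 6 rose and 3 fell, with a median of 0.31, which was -0.05 in the limma fit on FPKM. C3, the component on which all complement routes converge, had FPKM of 1.61, 1.41 and 1.26 in MC1 to MC3 and of 162, 161 and 158 in MM1 to MM3 (log2 fold change 7.09 ± 0.05 SE, adjusted P = 4.74e-75). Cfb, factor B of the alternative route, rose from 0.0274 to 1.55 FPKM, but 79.5% of its exonic bases overlap another gene. Masp1, a protease of the lectin route, rose from 10.6 to 30.4 (1.804), and Cd55, which protects cells by speeding the decay of C3 convertase, rose from 5.56 to 15.8 (1.78). Cfd, factor D, fell from 11.1 to 2.16 FPKM (-2.08), as did C1rl (-1.65) and Cd59a, which blocks the membrane attack complex (-1.31). C1s1 had a log2 fold change of 0.77 and was not called. The genes that rose and fell include activators and regulators in both directions.

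Genes of the inducible steps of prostaglandin synthesis rose. Ptgs2, which encodes the cyclooxygenase COX-2, had FPKM of 1.33, 1.78 and 1.47 in MC1 to MC3 and of 999.7, 955 and 977 in MM1 to MM3 (log2 fold change 9.603 ± 0.04 SE, adjusted P = 1.06e-84). Ptges, the PGE2 synthase that works with it, had FPKM of 9.36, 8.96 and 9.12 in MC1 to MC3 and of 186, 185 and 189.7 in MM1 to MM3 (log2 fold change 4.63). Hpgd, which encodes the dehydrogenase that inactivates PGE2, moved the other way, with FPKM of 18.7, 19.9 and 15.2 in MC1 to MC3 and of 0.563, 0.304 and 0.408 in MM1 to MM3 (log2 fold change -5.102 ± 0.16 SE, adjusted P = 9.45e-38). Ptgis, the prostacyclin synthase, fell from 54.7 to 23.01 FPKM (-0.97), and Ptgfr, the PGF2α receptor, rose from 0.609 to 8.17 (4.02). Of 18 genes of the list tested, 11 rose and 3 fell, with a median of 1.74.

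Nitric oxide is made from arginine by NOS2 with tetrahydrobiopterin as cofactor. Nos2 had FPKM of 0, 0 and 0.0126 in MC1 to MC3 and 444, 473 and 471 in MM1 to MM3. Gch1, the first enzyme of tetrahydrobiopterin synthesis, had FPKM of 0.766, 0.636 and 0.633 in MC1 to MC3 and of 9.55, 8.42 and 9.69 in MM1 to MM3 (log2 fold change 4.04 ± 0.09 SE, adjusted P = 1.44e-46), and Slc7a2, an arginine transporter, had FPKM of 48.8, 51.5 and 48.9 in MC1 to MC3 and of 374, 361 and 347 in MM1 to MM3 (log2 fold change 3.14 ± 0.03 SE, adjusted P = 3.31e-68). Arg2, the mitochondrial arginase that competes for arginine, rose from 0.0819 to 6.24 FPKM (6.46), and Ddah2, which clears a natural inhibitor of nitric oxide synthases, fell from 23.3 to 8.95 (-1.11). Of 15 genes tested, 6 rose and 2 fell, with a median of 0.46. The enzyme, its cofactor supply and its substrate transporter were all higher in every MM library.

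**Figure D2:**
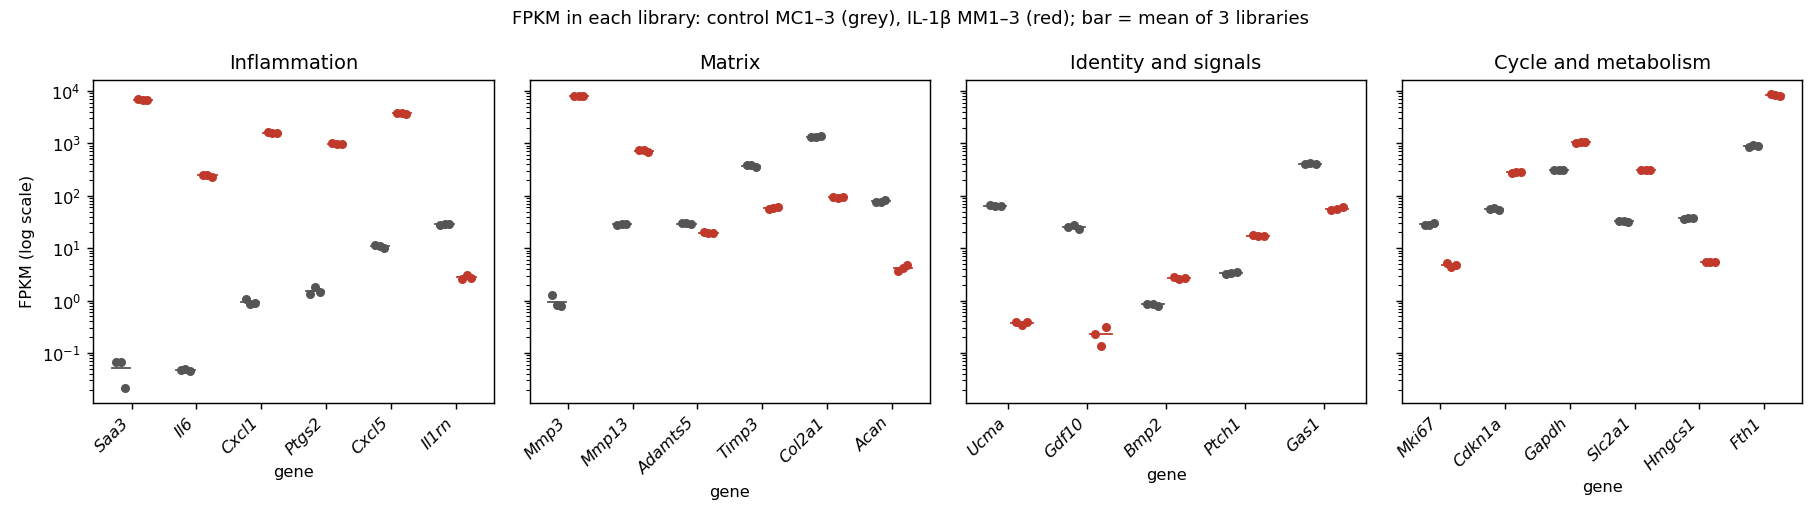
FPKM on a log scale (vertical axis) of 23 genes in each MC library (grey points) and MM library (red points), with the mean of 3 libraries as a bar. For each gene the points of a group lie close together beside the distance between groups, as for Saa3, Mmp3, Col2a1 and Ucma, while Adamts5 differs least.

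Interferon-stimulated genes went down. Of 33 tested, 25 fell and 1 rose, with a median of -1.95. Isg15, a ubiquitin-like protein of the antiviral response, had FPKM of 38.2, 50.5 and 30.9 in MC1 to MC3 and of 3.76, 5.55 and 4.24 in MM1 to MM3 (log2 fold change -2.86 ± 0.13 SE, adjusted P = 1.23e-28). Ifit3, an antiviral RNA-binding protein of the IFIT family, had FPKM of 21.7, 32.6 and 16.8 in MC1 to MC3 and of 0.572, 0.557 and 0.59003 in MM1 to MM3 (log2 fold change -5.08 ± 0.19 SE, adjusted P = 2.76e-34). All 4 IFIT genes tested fell, with log2 fold changes from -5.08 to -1.77, although 51.2% of the 50-base words of Ifit3 are shared, mostly with Ifit3b. Irf1, which NF-κB and interferon-γ both induce in other cells, had a log2 fold change of -0.48 and was not called. The member that rose was Gbp2, a guanylate-binding protein, from 3.599 to 14.9 FPKM (2.33).

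MHC class I genes did not share this direction. Class I molecules show peptides made by the proteasome and carried by TAP to CD8 T cells. H2-K1, a classical class I gene, had FPKM of 54.8, 53.6 and 52.3 in MC1 to MC3 and of 299, 315 and 316 in MM1 to MM3 (log2 fold change 2.81 ± 0.03 SE, adjusted P = 8.61e-63), and all 5 classical and Q region class I genes of the list rose, with log2 fold changes from 0.89 to 5.76. H2-Q6 and H2-Q7 had the highest of these (5.76 and 5.696), but 34.97% and 26.45% of their 50-base words occur in other genes. B2m, the light chain of every class I molecule, was not called, with FPKM of 464, 455 and 442 in MC1 to MC3 and of 569, 655 and 645 in MM1 to MM3 (0.74). Tap1, a subunit of the peptide transporter, fell from 5.05 to 2.02 FPKM (-1.04), as did the immunoproteasome gene Psmb10, from 11.99 to 4.72 (-1.07). Psmb8, also of the immunoproteasome, fell from only 0.891 to 0.301 FPKM (-1.302), and it was not called without MC2, where it was -1.18, since no remaining library then reached an FPKM of 1. Of 18 genes tested, 8 rose and 4 fell, with a median of 0.76.

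Of 16 matrix metalloproteinases tested, 5 rose and 1 fell, with a median of 0.35. Mmp13, the collagenase that cleaves type II collagen, had FPKM of 28.2, 28.3 and 28.4 in MC1 to MC3 and of 746, 736 and 692 in MM1 to MM3 (log2 fold change 4.96 ± 0.03 SE, adjusted P = 4.13e-75). Mmp10, stromelysin 2, rose from 0.0652 to 12.8 FPKM (7.77), and Mmp2, a gelatinase, was not called, with 104 ± 1.58 in MC and 138 ± 3.003 in MM (0.69). Mmp23 fell from 34.4 to 6.65 FPKM (-2.096). The list held from 0.158 to 0.163% of the counts of an MC library and from 1.73 to 1.76% of those of an MM library, and Mmp3 was its most abundant member in MM. Adamts4 and Adamts5 encode the aggrecanases ADAMTS4 and ADAMTS5. Adamts5 had FPKM of 30.1, 29.7 and 28.4 in MC1 to MC3 and of 20.4, 19.7 and 19.1 in MM1 to MM3 (log2 fold change -0.30 ± 0.03, adjusted P = 2.96e-12), and Adamts4 had FPKM of 2.31, 2.46 and 2.36 in MC1 to MC3 and of 1.504, 1.67 and 1.82 in MM1 to MM3 (-0.24 ± 0.12). Neither was called, and both were slightly lower in MM. Adamts7, which cleaves COMP, rose from 0.995 to 12.1 FPKM (3.89). The inhibitors diverged, since Timp1 had FPKM of 247, 243 and 255 in MC1 to MC3 and of 1039, 1117 and 1075 in MM1 to MM3 (log2 fold change 2.397) and Timp3, the TIMP that inhibits aggrecanases, had FPKM of 391, 387 and 354 in MC1 to MC3 and of 57.1, 58.8 and 61.2 in MM1 to MM3 (log2 fold change -2.398 ± 0.03 SE, adjusted P = 9.98e-61). Adamts10, which binds fibrillin, fell (-1.33). Of 19 ADAMTS and TIMP genes tested, 2 rose and 5 fell, with a median of -0.61.

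All 8 cartilage collagen genes tested fell, with a median of -2.99. Col2a1, which makes the main fibril, had FPKM of 1349.9, 1322 and 1369 in MC1 to MC3 and of 92.9, 91.9 and 96.1 in MM1 to MM3 (log2 fold change -3.57 ± 0.02 SE, adjusted P = 8.78e-75). Col11a1, whose product lies in the core of that fibril, had FPKM of 293, 299 and 298 in MC1 to MC3 and of 37.3, 37.3 and 37.5 in MM1 to MM3 (log2 fold change -2.71), and Col9a1, whose product decorates its surface, had FPKM of 88.6, 88.5 and 91.5 in MC1 to MC3 and of 3.78, 4.25 and 3.93 in MM1 to MM3 (-4.21). Col27a1 fell from 13.9 to 0.6204 FPKM (-4.21) and Col10a1, the marker of hypertrophic chondrocytes, from 18.5 to 5.67 (-1.43). Together the cartilage collagens held from 1.77 to 1.82% of the counts of an MC library and from 0.154 to 0.159% of those of an MM library. The least of these falls exceeded 2-fold, and the groups were well apart in each.

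Among the other collagens, falls outnumbered rises. Of 33 tested, 4 rose (12.1%) and 11 fell (33.3%), against 12.6% and 13.0% over all tested genes, with a median of -0.50. Col1a1 had FPKM of 1873, 1878 and 1911 in MC1 to MC3 and of 552, 565 and 558 in MM1 to MM3 (log2 fold change -1.48 ± 0.02 SE, adjusted P = 2.02e-56), while Col3a1, its partner in loose connective tissue, was not called, with FPKM of 345, 339.6 and 333 in MC1 to MC3 and of 314, 314 and 311 in MM1 to MM3 (0.16). Col8a2 had FPKM of 51.1, 48.99 and 49.1 in MC1 to MC3 and of 0.656, 0.809 and 0.803 in MM1 to MM3 (log2 fold change -5.76) and Col14a1, a fibril-associated collagen, fell from 7.599 to 0.242 FPKM (-4.701). Col6a1 encodes a chain of the type VI collagen of the matrix directly around chondrocytes and fell from 466 to 170.4 (-1.17). Col4a5, a basement membrane chain, fell from 34.4 to 4.73 (-2.59). Those that rose were Col5a2 (1.17), Col5a3 (3.54) and Col23a1 (4.18) among the named members, with Col5a2 the most abundant of them at 313 ± 3.27 in MC and 580.4 ± 2.73 in MM.

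Genes of the aggrecan network and the cartilage glycoproteins fell in most cases, 13 of 21 tested, and 3 rose, with a median of -2.58. Acan had FPKM of 77.2, 76.3 and 81.4 in MC1 to MC3 and of 3.69, 4.11 and 4.86 in MM1 to MM3 (log2 fold change -3.94 ± 0.05 SE, adjusted P = 2.14e-62), and Hapln1, whose link protein anchors aggrecan to hyaluronan, fell from 41.1 to 9.299 FPKM (-1.87). Ucma, a small secreted protein of the cartilage growth zone, had FPKM of 65.8, 64.5 and 65.01 in MC1 to MC3 and of 0.395, 0.347 and 0.388 in MM1 to MM3 (log2 fold change -7.13 ± 0.14 SE, adjusted P = 2.80e-49). Matn3, a matrilin that bridges collagen fibrils, had FPKM of 26.8, 27.9 and 26.7 in MC1 to MC3 and of 0.165, 0.1696 and 0.152 in MM1 to MM3 (log2 fold change -7.08). Cnmd, the angiogenesis inhibitor chondromodulin, had FPKM of 166, 165 and 164 in MC1 to MC3 and of 3.65, 4.11 and 4.41 in MM1 to MM3 (-5.07). Comp, which organises collagen fibrils, had FPKM of 298, 294 and 278 in MC1 to MC3 and of 37.9, 40.4 and 42.7 in MM1 to MM3 (-2.57). Papss2, which makes the sulfate donor for aggrecan chains, fell from 39.5 to 13.2 (-1.303). Against this, Prg4, the lubricant of the joint surface, had FPKM of 12.8, 13.2 and 12.6 in MC1 to MC3 and of 114, 104 and 109 in MM1 to MM3 (log2 fold change 3.36 ± 0.04 SE, adjusted P = 1.56e-62), and Vcan, the large proteoglycan versican, had FPKM of 21.04, 21.5 and 21.5 in MC1 to MC3 and of 83.2, 79.7 and 80.6 in MM1 to MM3 (log2 fold change 2.205 ± 0.03 SE, adjusted P = 1.06e-59).

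Small leucine-rich proteoglycans control the width of collagen fibrils, and their members differed widely among themselves. Of 13 tested, 2 rose and 6 fell, with a median of -0.44. Dcn, decorin, had FPKM of 22.7, 23.6 and 22.4 in MC1 to MC3 and of 607, 603 and 595 in MM1 to MM3 (log2 fold change 4.99 ± 0.03 SE, adjusted P = 2.69e-78), and Lum, lumican, had FPKM of 31.6, 33.6 and 34.6 in MC1 to MC3 and of 167, 167 and 168 in MM1 to MM3 (log2 fold change 2.61). Omd, osteomodulin, had FPKM of 49.1, 51.1 and 53.6 in MC1 to MC3 and of 0.177, 0.227 and 0 in MM1 to MM3 (log2 fold change -8.21 ± 0.13 SE, adjusted P = 8.64e-55), the largest fall among genes with a mean FPKM of 10 or more in a group. Ogn, osteoglycin, had FPKM of 549.8, 542 and 545 in MC1 to MC3 and of 12.9, 13.9 and 14.4 in MM1 to MM3 (-5.04), Aspn, asporin, had FPKM of 87.4, 90.1 and 84.7 in MC1 to MC3 and of 1.23, 1.04 and 0.778 in MM1 to MM3 (-6.13), and Fmod, fibromodulin, had FPKM of 419, 414 and 408 in MC1 to MC3 and of 36.1, 39.05 and 38.8 in MM1 to MM3 (-3.17). Bgn, biglycan, was not called, with 396 ± 4.15 in MC and 253 ± 2.39 in MM (-0.37). Decorin and osteoglycin exchanged places in abundance, and their groups did not overlap.

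Of 26 genes of elastic fibres and collagen cross-linking tested, 5 rose and 9 fell, with a median of -0.35. Eln, the elastin gene, had FPKM of 25.6, 25.1 and 24.1 in MC1 to MC3 and of 0.123, 0.1199 and 0.1695 in MM1 to MM3 (log2 fold change -7.23 ± 0.08 SE, adjusted P = 1.56e-62), and Mfap2, a microfibril protein, fell from 28.8 to 1.69 FPKM (-3.804). Efemp1, fibulin 3, fell from 158 to 17.7 (-2.88). Fbn1, the microfibril protein fibrillin 1, was not called (-0.38). Cross-linking enzymes named here moved the other way, with Lox, the lysyl oxidase, at FPKM of 822, 813 and 874 in MC1 to MC3 and of 1794, 1769 and 1745 in MM1 to MM3 (log2 fold change 1.36 ± 0.02 SE, adjusted P = 2.08e-52) and Plod1, a lysyl hydroxylase, rising from 48.1 to 139 (1.81). Loxl2 rose from 17.98 to 97.2 (2.71), although 45.01% of its 50-base words are shared with another gene, and Ltbp2, which binds fibrillin, rose from 21.03 to 97.8 (2.496).

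Of 15 hyaluronan genes tested, 4 rose and 2 fell, with a median of 0.24, which became -0.04 when libraries were scaled by size alone. Cd44, the hyaluronan receptor, had FPKM of 23.02, 22.7 and 24.1 in MC1 to MC3 and of 105, 102 and 102 in MM1 to MM3 (log2 fold change 2.42 ± 0.03 SE, adjusted P = 1.15e-59), and Tnfaip6, whose product TSG-6 binds hyaluronan in inflammation, had FPKM of 3.01, 3.47 and 3.71 in MC1 to MC3 and of 9.33, 10.7 and 9.63 in MM1 to MM3 (log2 fold change 1.82). Has1, a hyaluronan synthase, rose from 1.44 to 5.82 FPKM (2.29), while Has2, the main synthase of cartilage, was not called, with 1.801 ± 0.0308 in MC and 1.18 ± 0.1603 in MM (-0.33). Hmmr, which also serves the mitotic spindle, fell from 9.12 to 3.91 (-0.94).

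Of 28 genes of glycosaminoglycan synthesis and sulfation tested, 4 rose (14.3%), 4 fell (14.3%) and 20 were not called, with a median of -0.06. These shares were close to the 12.6% and 13.0% of all tested genes. Scaled by library size alone, there were 2 rises and 5 falls. Slc26a2, the sulfate transporter whose loss causes chondrodysplasias, had FPKM of 9.98, 11.3 and 10.4 in MC1 to MC3 and of 2.64, 2.38 and 2.62 in MM1 to MM3 (log2 fold change -1.78 ± 0.05 SE, adjusted P = 2.17e-40), and Csgalnact1, which starts chondroitin chains, had FPKM of 26.4, 26.8 and 26.8 in MC1 to MC3 and of 7.77, 7.09 and 8.19 in MM1 to MM3 (log2 fold change -1.52). Ugdh, which makes the UDP-glucuronate that all these chains need, rose from 37.5 to 116 FPKM (1.91), and Ext1, a heparan sulfate polymerase, from 14.3 to 31.2 (1.3997). Chst11, a chondroitin sulfotransferase, rose from 12.8 to 20.4 (0.95), which was 0.67 when scaled by library size alone.

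**Figure D3:**
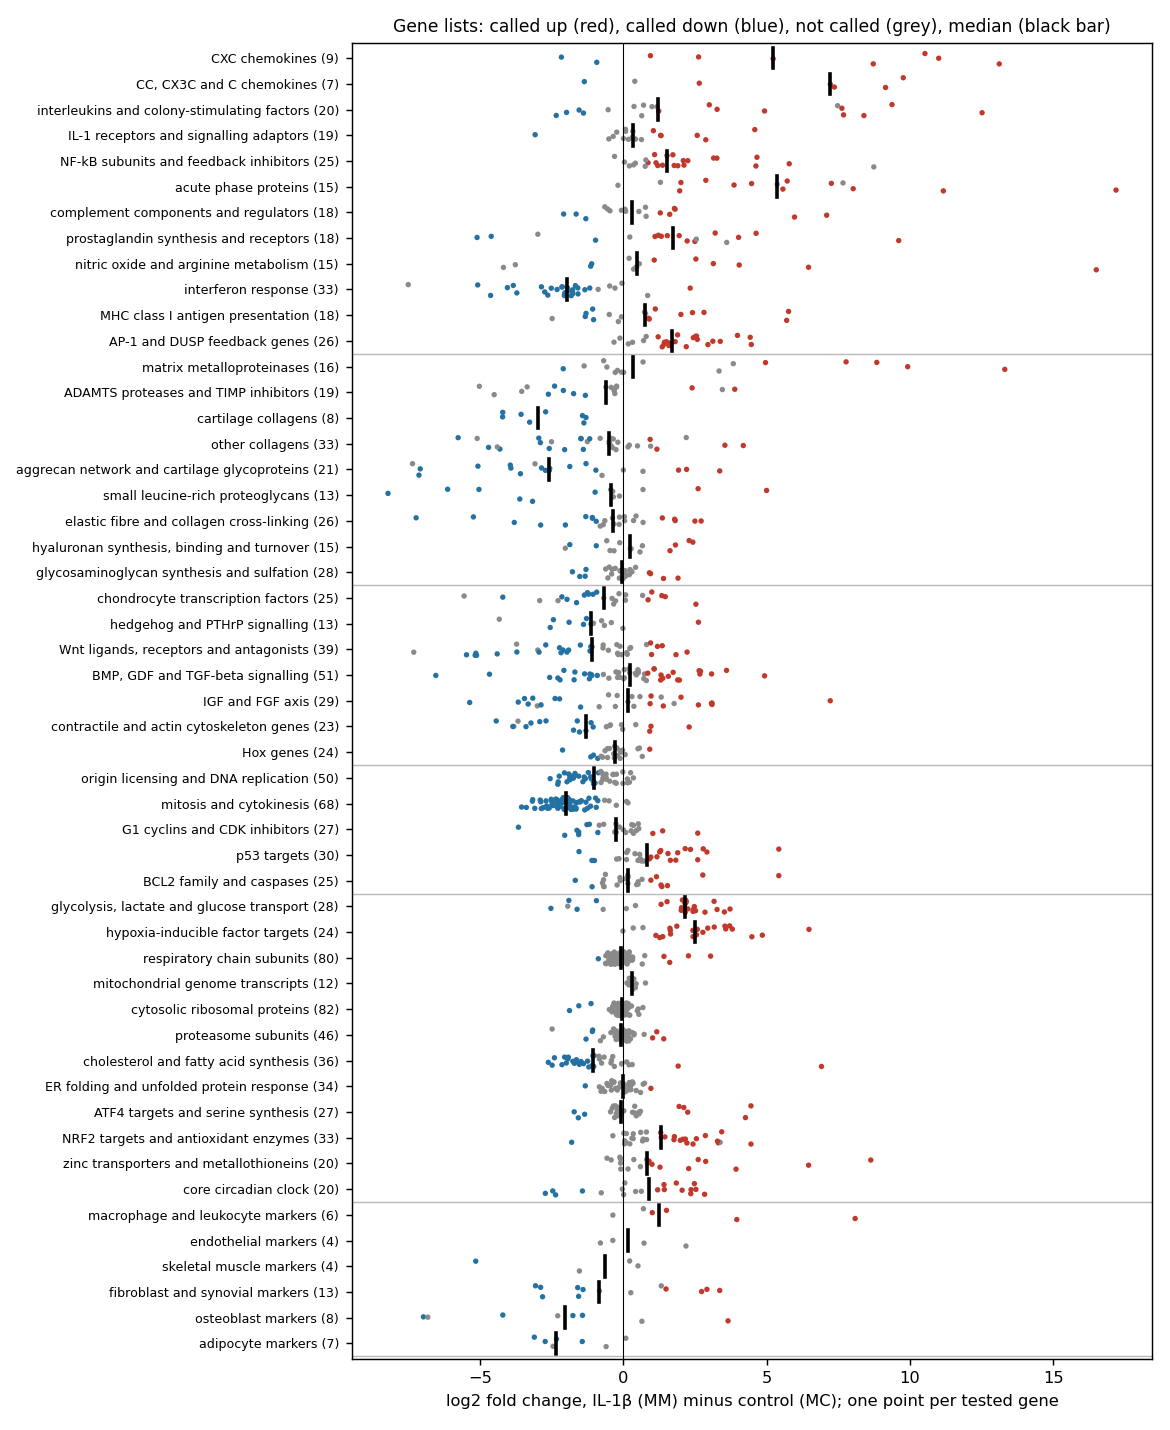
Log2 fold change (MM minus MC, horizontal axis) of each tested member of 51 gene lists (vertical axis, number tested in brackets), red where the gene rose, blue where it fell and grey where it was not called, with the list median as a black bar. The highest medians are those of the CC, CX3C and C chemokines at 7.22, the acute phase proteins at 5.36 and the CXC chemokines at 5.22, while the cartilage collagens lie wholly to the left at -2.99, and ribosomal and proteasome genes lie around 0. The highest medians lean towards rises, since some members passed the count filter through MM alone.

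Transcription factors of cartilage moved in both directions. Sox9, the factor that activates Col2a1 and Acan, had FPKM of 42.1, 42.6 and 43.7 in MC1 to MC3 and of 15.8, 16.7 and 18.5 in MM1 to MM3 (log2 fold change -1.06 ± 0.04 SE, adjusted P = 1.78e-32). Sox6, a partner of SOX9, fell from 7.82 to 2.52 FPKM (log2 fold change -1.36), and Sox5, the other partner, rose from 3.77 to 5.66 (0.86), just past the threshold of 0.85. Without MM3 the value for Sox5 was 0.84, and scaled by library size alone it was 0.58, neither of them a call. Runx2, the factor of hypertrophy and bone, was not called (-0.39), while Runx1 rose from 4.01 to 8.38 (1.34). Pitx1, a factor of hindlimb identity, had FPKM of 118, 119 and 119.5 in MC1 to MC3 and of 41.9, 42.1 and 42.9 in MM1 to MM3 (log2 fold change -1.21 ± 0.03 SE, adjusted P = 1.09e-40), and Zfp521 fell from 28.9 to 7.67 (-1.63). Bhlhe40, a repressor linked to hypoxia and to the clock, rose from 10.7 to 50.8 (2.53), and Mef2d from 17.7 to 28.99 (0.99), which was 0.71 and no call when scaled by library size alone. Of 25 tested, 5 rose and 9 fell, with a median of -0.69.

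Hedgehog and PTHrP signals set the pace of chondrocyte maturation. Of 13 genes tested, 1 rose and 6 fell, with a median of -1.13. The gene that rose was Ptch1, the hedgehog receptor and a target of the pathway, with FPKM of 3.24, 3.33 and 3.58 in MC1 to MC3 and of 17.6, 17.1 and 16.8 in MM1 to MM3 (log2 fold change 2.62 ± 0.04 SE, adjusted P = 7.47e-55). Gli1, the other classical target, had 74 counts in all MC libraries and 3 in all MM libraries and was not called because its FPKM was below 1 throughout, with counts lower in MM by a ratio of 22.3 (95% counting interval 7.36 to 111). Ptch1 was thus higher and Gli1 lower in every MM library than in any MC library. Gas1, a co-receptor, had FPKM of 397, 413 and 403 in MC1 to MC3 and of 53.7, 55.7 and 61.4 in MM1 to MM3 (log2 fold change -2.55 ± 0.03 SE, adjusted P = 6.42e-60). Pth1r, the PTHrP receptor, fell from 5.37 to 0.816 FPKM (-2.44) and Disp1, which releases hedgehog ligands, from 18.6 to 4.12 (-1.89).

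Of 39 Wnt ligands, receptors and antagonists tested, 6 rose and 17 fell, with a median of -1.09. Secreted antagonists were among the largest falls. Sfrp2 had FPKM of 287, 298 and 256 in MC1 to MC3 and of 6.603, 6.32 and 6.32 in MM1 to MM3 (log2 fold change -5.17 ± 0.05 SE, adjusted P = 4.39e-66). Wif1 fell from 7.38 to 0.455 FPKM (-3.71) and Frzb from 8.52 to 1.81 (-1.97). Among the 9 frizzled receptors tested, 5 fell and 1 rose. Fzd9 had FPKM of 28.6, 27.6 and 28.1 in MC1 to MC3 and of 0.457, 0.312 and 0.823 in MM1 to MM3 (log2 fold change -5.47), and Fzd1 had FPKM of 34.03, 34.8 and 33.8 in MC1 to MC3 and of 71.5, 72.7 and 72.4 in MM1 to MM3 (1.36). Wnt5a was not called (-0.52), while Wnt11 rose from 1.92 to 5.64 (1.84) and Rspo3, which amplifies Wnt signals, from 10.6 to 17.2 (0.98), which was 0.70 and no call when scaled by library size alone. Axin2, the usual target of β-catenin, rose from 0.938 to 1.77 (1.19), which was 0.52 and no call with limma on log2(FPKM + 1).

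Of 51 genes of BMP, GDF and TGF-β signalling tested, 16 rose and 14 fell, with a median of 0.22, which became -0.06, with 13 rises and 15 falls, when libraries were scaled by size alone. Inhba, the activin A subunit, had FPKM of 5.63, 5.297 and 5.73 in MC1 to MC3 and of 148, 133 and 137 in MM1 to MM3 (log2 fold change 4.92 ± 0.04 SE, adjusted P = 1.66e-70), and Bmp2, which drives cartilage and bone formation, had FPKM of 0.871, 0.852 and 0.799 in MC1 to MC3 and of 2.82, 2.53 and 2.72 in MM1 to MM3 (1.96). Grem1, the BMP antagonist gremlin, had FPKM of 88.8, 99.1 and 102 in MC1 to MC3 and of 986, 926 and 977 in MM1 to MM3 (log2 fold change 3.598 ± 0.03 SE, adjusted P = 4.66e-69). Fstl3, an activin antagonist, rose from 2.93 to 20.4 FPKM (3.08), with 47.3% of its exonic bases in common with another gene. Gdf10 had FPKM of 24.9, 27.2 and 23.5 in MC1 to MC3 and of 0.2298, 0.137 and 0.307 in MM1 to MM3 (log2 fold change -6.54), and Chrdl1, another BMP antagonist, had FPKM of 20.2, 21.9 and 22.2 in MC1 to MC3 and of 0.686, 0.817 and 0.567 in MM1 to MM3 (-4.67). Gdf5, the ligand of the developing joint, rose from 3.41 to 17.5 (2.64), with 40.3% of its exonic bases in common with another gene. Id1, a direct target of BMP receptors, had FPKM of 83.04, 80.8 and 72.4 in MC1 to MC3 and of 24.98, 23.7 and 27.8 in MM1 to MM3 (log2 fold change -1.35 ± 0.06 SE, adjusted P = 1.67e-31), and Smad9, which BMP receptors activate, fell from 6.65 to 1.12 (-2.28). Of the 3 TGF-β genes, 2 fell and 1 was not called. Ligands and antagonists were thus found on both sides.

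Of 29 genes of the IGF and FGF axis tested, 9 rose and 9 fell, with a median of 0.16, or -0.12 with 7 rises and 10 falls when scaled by library size alone. Igf1, the main growth factor for matrix synthesis in cartilage, had FPKM of 6.35, 6.54 and 6.72 in MC1 to MC3 and of 0.483, 0.563 and 0.427 in MM1 to MM3 (log2 fold change -3.45 ± 0.08 SE, adjusted P = 2.85e-44), and Igfbp5, an IGF-binding protein, had FPKM of 543, 564 and 525 in MC1 to MC3 and of 159.9, 161 and 157 in MM1 to MM3 (log2 fold change -1.49). Fgfr3, the receptor that restrains the growth plate, had FPKM of 16.5, 15.9 and 15.96 in MC1 to MC3 and of 1.51, 1.2998 and 1.67 in MM1 to MM3 (log2 fold change -3.16 ± 0.06 SE, adjusted P = 3.67e-49), and of the 4 FGF receptors 3 fell. Fgf7, a ligand for epithelial cells, had FPKM of 16.2, 17.2 and 19.1 in MC1 to MC3 and of 128, 121 and 121 in MM1 to MM3 (log2 fold change 3.09 ± 0.04 SE, adjusted P = 2.84e-59). Stc1 and Stc2 encode stanniocalcins, of which STC2 blocks the protease that frees IGF, and rose from 4.84 to 33.5 (3.07) and 5.96 to 41.8 FPKM (3.09).

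Most cell cycle genes fell. Of 68 genes of mitosis and cytokinesis tested, 63 fell and 0 rose, with a median of -2.003, and of 50 genes of origin licensing and DNA replication, 28 fell and 0 rose, with a median of -1.04. Mki67, which marks cycling cells, had FPKM of 28.1, 27.9 and 30.8 in MC1 to MC3 and of 5.29, 4.33 and 4.68 in MM1 to MM3 (log2 fold change -2.32 ± 0.05 SE, adjusted P = 1.79e-49), and Top2a, the topoisomerase of chromosome condensation, had FPKM of 23.8, 25.3 and 24.5 in MC1 to MC3 and of 4.05, 3.91 and 4.71 in MM1 to MM3 (log2 fold change -2.26). Cdk1, the mitotic kinase, had FPKM of 14.1, 14.1 and 13.3 in MC1 to MC3 and of 2.23, 2.37 and 2.38 in MM1 to MM3 (-2.29). The largest falls among those with a mean FPKM of at least 5 were those of Spc24 (-3.55) and Cenpm (-3.38), both of the kinetochore, and Cdca3 (-3.17). All 6 subunits of the MCM helicase fell, with log2 fold changes from -2.55 to -0.99, and Mcm6 had FPKM of 18.7, 18.8 and 17.8 in MC1 to MC3 and of 2.73, 2.25 and 2.81 in MM1 to MM3. Mcm2 fell from 9.34 to 2.34 FPKM (-1.72), Mcm5 from 12.6 to 2.21 (-2.24) and Uhrf1, which copies DNA methylation, from 11.9 to 2.34 (-2.06). Pcna, the sliding clamp, was among the 22 replication genes not called. It had FPKM of 45.1, 44.5 and 41.7 in MC1 to MC3 and of 42.3, 40.7 and 42.4 in MM1 to MM3. Its log2 fold change was 0.21 ± 0.04, its groups overlapped in FPKM, and 19.1% of its 50-base words occur in other genes. The mitosis list held from 0.366 to 0.384% of the counts of an MC library and from 0.0839 to 0.0898% of those of an MM library.

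**Figure D4:**
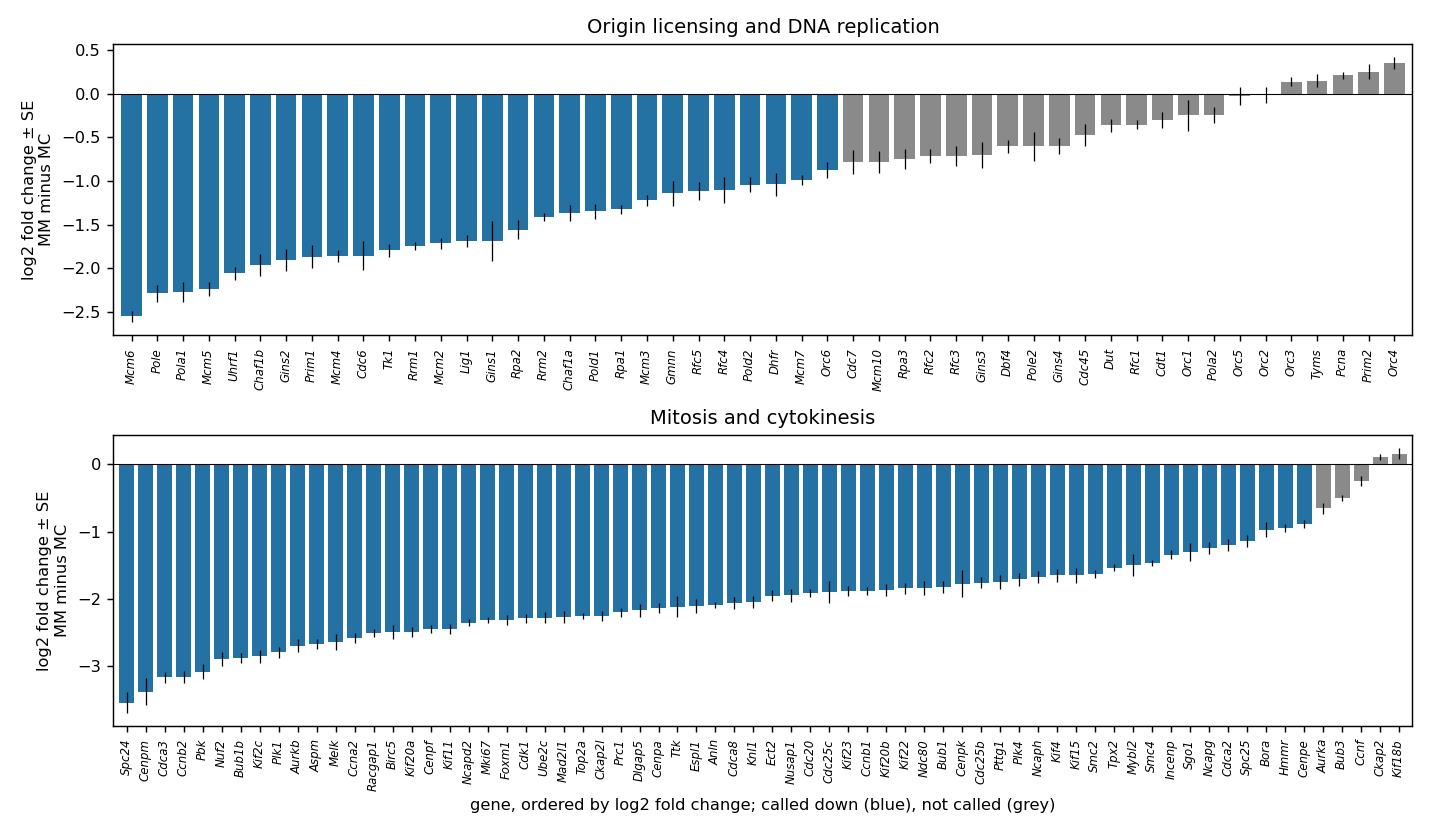
Log2 fold change with its standard error (vertical axis) for the 50 tested genes of origin licensing and DNA replication (upper panel) and the 68 of mitosis and cytokinesis (lower panel), ordered by value, blue where the gene fell and grey where it was not called. Of these, 28 and 63 fell, and no gene of either list rose.

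Of 27 regulators of the G1 phase tested, 3 rose (11.1%) and 8 fell (29.6%), with a median of -0.25. Over all tested genes the shares were 12.6% and 13.0%. Cdkn1a, which encodes the inhibitor p21, had FPKM of 56.3, 58.04 and 53.96 in MC1 to MC3 and of 278, 278 and 281 in MM1 to MM3 (log2 fold change 2.59 ± 0.03 SE, adjusted P = 3.84e-62). Cdkn1c, the inhibitor p57 of growth plate chondrocytes, had FPKM of 34.7, 37.2 and 35.8 in MC1 to MC3 and of 2.495, 1.91 and 2.64 in MM1 to MM3 (log2 fold change -3.66 ± 0.08 SE, adjusted P = 5.94e-46). Cdkn2b, the inhibitor p15, was not called (0.54). Ccnd1, cyclin D1, had FPKM of 75.3, 73.7 and 73.7 in MC1 to MC3 and of 20.9, 20.6 and 20.9 in MM1 to MM3 (log2 fold change -1.56). Of the retinoblastoma family, Rb1 rose from 2.44 to 5.21 FPKM (1.37) and Rbl1 fell from 5.32 to 1.44 (-1.62).

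Of 30 p53 targets tested, 15 rose and 3 fell, with a median of 0.82. Mdm2, the ligase that destroys p53, had FPKM of 16.5, 18.9 and 16.9 in MC1 to MC3 and of 109, 105 and 110.1 in MM1 to MM3 (log2 fold change 2.91 ± 0.04 SE, adjusted P = 2.37e-60), and Ccng1 rose from 67.2 to 125 FPKM (1.17). Pmaip1, the pro-apoptotic protein NOXA, rose from 0.241 to 8.59 (5.42), and Plk2 from 15.1 to 85.6 (2.79). Phlda3, an inhibitor of AKT, was not called (0.73), and Sesn1 (-1.55) and Perp (-1.096) fell. Of 25 genes of the BCL2 family and caspases tested, 7 rose and 2 fell, with a median of 0.16, or -0.12 with 6 rises and 7 falls when scaled by library size alone. The survival genes Bcl2l1 (1.16), Bcl2l2 (1.34) and Cflar (1.54) rose, Bcl2l1 being 0.84 and no call with limma on log2(FPKM + 1), while Bcl2l11, the death-promoting BIM, was not called (0.16). Casp4, the caspase that senses cytosolic lipopolysaccharide, rose from 0.549 to 3.07 (2.77), and Casp12 fell from 9.15 to 2.35 (-1.68).

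Most glycolytic genes rose. Of 28 gene identifiers tested for glycolysis, lactate and glucose transport, 20 rose and 4 fell, with a median of 2.15. Aldoa stands under more than 1 identifier in the table, and each was counted, 1 of them rising (1.32) and 1 falling (-1.90). Of the 14 main isoforms from hexokinase to lactate dehydrogenase, 13 rose, and the highest value was 3.27 for Hk2. Slc2a1, the glucose transporter GLUT1, had FPKM of 32.9, 32.9 and 31.8 in MC1 to MC3 and of 305, 307 and 313 in MM1 to MM3 (log2 fold change 3.52 ± 0.03 SE, adjusted P = 9.69e-69). Gapdh had FPKM of 305, 316 and 309.6 in MC1 to MC3 and of 1022, 1064 and 1045 in MM1 to MM3 (log2 fold change 2.03 ± 0.02 SE, adjusted P = 2.43e-61), and 25.1% of its 50-base words occur in other genes. Ldha, which makes lactate, had FPKM of 307, 305 and 319.7 in MC1 to MC3 and of 1420.3, 1429 and 1420.4 in MM1 to MM3 (log2 fold change 2.48), and Slc16a3, the lactate exporter MCT4, had FPKM of 15.5, 15.3 and 17.1 in MC1 to MC3 and of 168, 175 and 178 in MM1 to MM3 (log2 fold change 3.72 ± 0.04 SE, adjusted P = 3.22e-67). Ldhb, which favours the reverse reaction, fell from 37.3 to 10.04 FPKM (-1.61), as did Eno3, the muscle enolase (-2.53), and Slc2a10 (-0.94). The list held from 0.909 to 0.925% of the counts of an MC library and from 3.09 to 3.18% of those of an MM library.

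Hypoxia-inducible factor (HIF) is the transcription factor that low oxygen stabilises. Of 24 of its targets tested, 21 rose and 0 fell, with a median of 2.49. Vegfa, the angiogenic growth factor, had FPKM of 28.4, 28.2 and 29.4 in MC1 to MC3 and of 205, 216 and 217 in MM1 to MM3 (log2 fold change 3.17 ± 0.03 SE, adjusted P = 1.37e-65), and Car9, carbonic anhydrase 9, had FPKM of 7.76, 7.27 and 8.92 in MC1 to MC3 and of 196, 184 and 189 in MM1 to MM3 (log2 fold change 4.85). Egln3, the prolyl hydroxylase that marks HIF for destruction, had FPKM of 1.69, 1.29 and 1.32 in MC1 to MC3 and of 99.3, 106 and 110.4 in MM1 to MM3 (log2 fold change 6.47 ± 0.06 SE, adjusted P = 6.94e-66). Bnip3, which directs mitochondria to autophagy, rose from 18.99 to 186 (3.57), with 47.2% of its 50-base words shared. Ankrd37 rose from 0.289 to 5.39 (4.48).

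**Figure D5:**
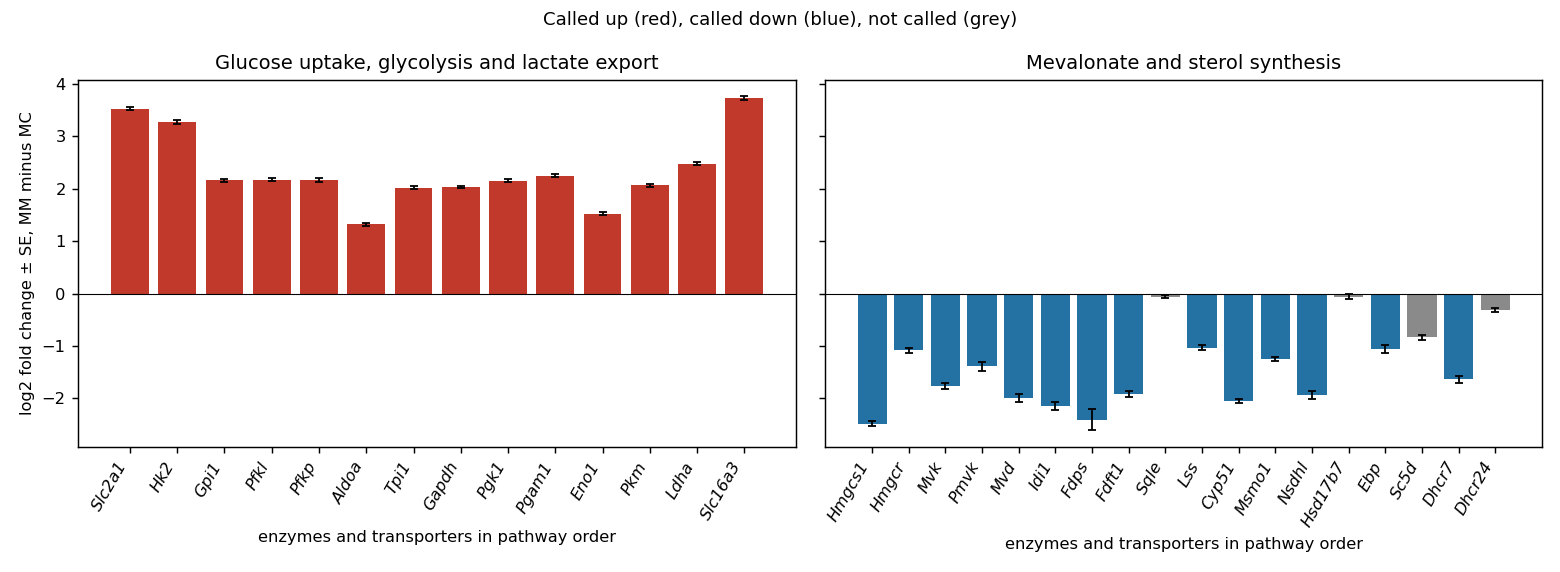
Log2 fold change with its standard error (vertical axis) of genes in pathway order, from glucose uptake to lactate export (left) and from acetyl-CoA to cholesterol (right), red where the gene rose, blue where it fell and grey where it was not called. Each step shown on the left rose, from Slc2a1 at 3.52 to Slc16a3 at 3.72, and Hmgcs1 was lowest on the right at -2.48.

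Of 80 nuclear genes of the respiratory chain tested, 4 rose and 1 fell, with a median of -0.10, or 4 rises and 5 falls when scaled by library size alone. The members that rose include isoforms known from hypoxic or contractile tissue. Ndufa4l2 had FPKM of 63.6, 62.6 and 60.8 in MC1 to MC3 and of 422, 429 and 419 in MM1 to MM3 (log2 fold change 3.04 ± 0.04 SE, adjusted P = 4.09e-62), Cox4i2 rose from 27.8 to 70.3 FPKM (1.62) and Cox7a1 from 1.3995 to 5.62 (2.27). The common isoforms Ndufa4 (-0.02) and Cox4i1 (0.02) were not called, nor was Sdha (-0.39). None of the 12 tested transcripts of the mitochondrial genome was called, with a median of 0.31, or 0.03 scaled by library size alone. By adjusted P alone, 11 of these 12 were higher in MM.

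Of 82 cytosolic ribosomal protein genes tested, 0 rose and 3 fell, with a median of -0.04. The genes that fell were Rpl3 (-1.55), Rpl10a (-1.13) and Rpl22l1 (-1.88), and Rpl3 had FPKM of 272, 263 and 249 in MC1 to MC3 and of 71.8, 75.4 and 73.2 in MM1 to MM3. Rps6 (-0.17) and Rplp0 (0.54) were not called. Ribosomal genes have many pseudogenes, and 35.03% of the 50-base words of Rpl3 and 20.8% of those of Rpl10a occur in other genes. Of 46 proteasome genes tested, 3 rose and 3 fell, with a median of -0.09, or 2 rises and 5 falls when scaled by library size alone. Psmd8 (1.41), Psmd10 (1.17) and Psmd5 (1.02) rose. However, Psmd5 was 0.74 and no call when scaled by library size alone, and Psmd10 0.83 and no call with limma on log2(FPKM + 1). Of the catalytic subunits, the immunoproteasome genes Psmb8 and Psmb10 were among those that fell. Psmb5, a constitutive catalytic subunit, was not called (0.16).

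Sterol synthesis fell. Of 36 genes of cholesterol and fatty acid synthesis tested, 21 fell and 2 rose, with a median of -1.07. Of 19 enzymes from HMG-CoA synthase to the last steps of cholesterol, 15 fell, 4 were not called and 0 rose. Hmgcs1, the first of them, had FPKM of 36.1, 37.3 and 38.1 in MC1 to MC3 and of 5.52, 5.36 and 5.54 in MM1 to MM3 (log2 fold change -2.48 ± 0.05 SE, adjusted P = 3.10e-50). Idi1 fell from 13.6 to 2.56 FPKM (-2.14) and Elovl6, a fatty acid elongase, from 14.5 to 1.94 (-2.62). Ch25h, whose product 25-hydroxycholesterol represses sterol synthesis in other cells, had FPKM of 0.433, 0.308 and 0.248 in MC1 to MC3 and of 32.8, 33.1 and 33.2 in MM1 to MM3 (log2 fold change 6.91 ± 0.14 SE, adjusted P = 1.53e-48). Ch25h was higher and Hmgcs1 lower in every MM library than in any MC library, and a link between them was not tested.

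Of 34 endoplasmic reticulum stress genes tested, 1 rose and 1 fell, with a median of 0.00. Scaled by library size alone, 0 rose and 6 fell, with a median of -0.27. Hspa5, the chaperone BiP, was not called, with FPKM of 245, 235 and 234 in MC1 to MC3 and of 235, 234 and 238 in MM1 to MM3 (0.26), nor was Xbp1 (0.06). Ern1, the stress sensor IRE1α, rose from 7.55 to 12.1 FPKM (0.96), which was 0.68 and no call when scaled by library size alone. Serpinh1, the chaperone HSP47 that serves collagens alone, was the gene that fell, with FPKM of 1014, 997 and 973 in MC1 to MC3 and of 324, 323 and 333 in MM1 to MM3 (log2 fold change -1.33 ± 0.03 SE, adjusted P = 5.97e-50). Of 27 ATF4 targets and serine synthesis genes, 5 rose and 3 fell, with a median of -0.09. Atf3 rose from 2.65 to 41.9 (4.26) and Cebpb, a factor of the acute phase response, from 24.7 to 96.6 (2.24), while Atf4 (0.55) and Asns (-0.21) were not called. Phgdh, the first enzyme of serine synthesis, fell from 106 to 34.2 (-1.35), although 47.8% of its 50-base words occur in other genes. The amino acid transporters Slc7a5 (-1.57) and Slc7a3 (-1.72) fell too.

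Of 33 NRF2 targets and antioxidant enzymes tested, 16 rose and 1 fell, with a median of 1.301. Hmox1, the haem oxygenase, had FPKM of 80.4, 77.9 and 77.8 in MC1 to MC3 and of 663, 655 and 613 in MM1 to MM3 (log2 fold change 3.31 ± 0.03 SE, adjusted P = 2.57e-66), and Nqo1 had FPKM of 39.5, 38.9 and 40.1 in MC1 to MC3 and of 182, 171 and 173 in MM1 to MM3 (log2 fold change 2.43). Sod2, the mitochondrial superoxide dismutase that NF-κB also induces, had FPKM of 5.72, 5.16 and 5.02 in MC1 to MC3 and of 47.7, 47.9 and 45.5 in MM1 to MM3 (3.43). Slc7a11, the cystine transporter that feeds glutathione synthesis, rose from 1.09 to 19.6 FPKM (4.45). Gpx7, of the endoplasmic reticulum, was the member that fell, from 54.2 to 12.8 (-1.803).

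Of 20 zinc transporters and metallothioneins tested, 9 rose and 0 fell, with a median of 0.83. Slc39a8, the zinc importer ZIP8, rose from 0.613 to 3.09 FPKM (2.61), Slc39a14, the importer ZIP14 of the acute phase response, from 10.97 to 43.9 (2.28) and Slc39a10 from 5.49 to 33.1 (2.87). Mt1, a metallothionein that buffers zinc, had FPKM of 184, 183 and 190.03 in MC1 to MC3 and of 2281, 2390.4 and 2331 in MM1 to MM3 (log2 fold change 3.93 ± 0.03 SE, adjusted P = 9.11e-74). Mt3 had 1 count in all MC libraries and 500 in all MM libraries, a ratio of 552 (95% counting interval 98.6 to 21839.6). Mt2, the neighbour of Mt1, had only 2 counts in all MC libraries and 16 in all MM libraries, and 73.5% of its exonic bases overlap another annotated gene, so its low count says little about its expression.

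Contractile genes fell more often than they rose. Of 23 tested, 12 fell and 3 rose, with a median of -1.304. Acta2, the smooth muscle actin of myofibroblasts, had FPKM of 174, 167 and 153 in MC1 to MC3 and of 6.33, 6.31 and 6.17 in MM1 to MM3 (log2 fold change -4.43 ± 0.05 SE, adjusted P = 7.03e-61), and Myl9, a regulatory myosin light chain, had FPKM of 40.6, 38.8 and 33.5 in MC1 to MC3 and of 2.88, 2.99 and 2.95 in MM1 to MM3 (log2 fold change -3.396). Vcl, vinculin, fell from 36.6 to 9.05 FPKM (-1.74). Actn1 (0.96) and Tpm4 (0.92) rose, at 0.68 and 0.64 when scaled by library size alone, below the threshold. Tagln was not tested, with 41 counts in all MC libraries and 13 in all MM libraries, and 67.9% of its exonic bases overlap another gene.

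Markers of other cell types were read beside these lists. Of 20 macrophage and leukocyte markers in the table, 6 were tested, of which 4 rose and 0 fell. This tally leans towards rises, since S100a8, near 0 in MC, passed the count filter through MM alone. S100a8, a subunit of the calprotectin of neutrophils, had FPKM of 0.0842, 0.0856 and 0.401 in MC1 to MC3 and of 46.9, 47.1 and 43.5 in MM1 to MM3, and Cd14, the lipopolysaccharide co-receptor, had FPKM of 2.304, 1.44 and 1.88 in MC1 to MC3 and of 23.4, 23.9 and 24.9 in MM1 to MM3. Cd68 (1.505) and Lyz2 (1.01) rose too, and Lyz2 was 0.75 without MM2, below the threshold. Csf1r (0.70, adjusted P = 0.0086996) and Mrc1 (-0.37, adjusted P = 0.136) were not called. Ptprc was not tested, with 3 counts in all MC libraries and 1 in all MM libraries, and Itgam, Itgax and Ms4a1 had 0 counts in every library. The whole list held from 0.00146 to 0.00167% of the counts of an MC library and from 0.00871 to 0.00917% of those of an MM library. None of the 4 endothelial markers tested was called. Of 4 skeletal muscle markers tested, 1 fell, and Myod1 had 23 counts in MC and 0 in MM.

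Of 13 fibroblast and synovial markers tested, 4 rose and 6 fell, with a median of -0.83. Pdpn, the podoplanin of the synovial lining, had FPKM of 77.5, 76.2 and 73.2 in MC1 to MC3 and of 405, 413 and 421 in MM1 to MM3 (log2 fold change 2.73 ± 0.03 SE, adjusted P = 3.31e-62), and Tnc, the tenascin of healing tissue, had FPKM of 65.2, 64.4 and 68.3 in MC1 to MC3 and of 418, 393 and 419 in MM1 to MM3 (log2 fold change 2.91). Postn, periostin, fell from 9.97 to 1.105 FPKM (-2.89), Thy1 from 12.5 to 3.48 (-1.56) and Pdgfrb from 78.8 to 24.5 (-1.41), while Pdgfra was not called (0.26). Of 8 osteoblast markers, 1 rose, namely Spp1 (3.65), and 4 fell. Ibsp, the bone sialoprotein, had FPKM of 7.88, 7.95 and 8.75 in MC1 to MC3 and of 0.0724, 0 and 0.08298 in MM1 to MM3 (-6.97), and Alpl, alkaline phosphatase, fell from 4.197 to 1.29 (-1.43). Of 7 adipocyte markers, 4 fell and 0 rose, including Adipoq (-3.105) and Lpl (-1.43), with Fabp4 not called (0.09).

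Genes without a rat gene of the same symbol number 14196 in the table and 2953 among those tested, of which 402 rose (13.6%) and 309 fell (10.5%). Among the 11821 tested genes with a match, 1460 rose (12.4%) and 1608 fell (13.6%). Genes without a match held 6.98% of the counts in MC and 9.56% in MM. Their largest fitted rises were those of Saa3, H2-Q2, Stfa3, Cxcl5, U90926 and Ptgs2os2, of which Saa3 held 1.79, 1.73 and 1.72% and Cxcl5 0.721, 0.708 and 0.669% of the counts of MM1 to MM3. U90926, which the annotation lists as protein coding, had FPKM of 0.219, 0.742 and 0.905 in MC1 to MC3 and of 188, 214 and 192 in MM1 to MM3. Ptgs2os2, an intergenic transcript beside Ptgs2 on chromosome 1, had FPKM of 0.1004, 0.03403 and 0 in MC1 to MC3 and of 11.4, 12.2 and 12.1 in MM1 to MM3. The largest falls were those of H19, Ifi27l2a, Cd248, Cdsn, Mettl7a1 and 1500015O10Rik. H19, a long noncoding RNA of the imprinted Igf2 domain on chromosome 7, had FPKM of 845, 819 and 834 in MC1 to MC3 and of 10.5, 10.7 and 11.02 in MM1 to MM3 (log2 fold change -5.998 ± 0.04 SE, adjusted P = 5.48e-78). Ifi27l2a, an interferon-stimulated gene outside the list above, had FPKM of 12.5, 11.7 and 9.26 in MC1 to MC3 and of 0.108, 0.221 and 0.124 in MM1 to MM3, and Cd248, the endosialin of stromal cells, had FPKM of 122, 122.6 and 129 in MC1 to MC3 and of 6.14, 6.59 and 7.15 in MM1 to MM3. A symbol match says only that the names agree, and some of these genes have rat relatives under other names.

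Among noncoding classes, 47 of 333 tested intergenic long noncoding RNAs rose (14.1%) and 40 fell (12.01%). Over all tested genes these shares were 12.6% and 13.0%. Of 360 antisense genes, 52 rose (14.4%) and 35 fell (9.72%). Of 57 transcripts from bidirectional promoters, 14 rose (24.6%) and 6 fell. Of 234 processed pseudogenes, 45 rose (19.2%) and 23 fell. The sources do not say if reads were counted by strand, so antisense genes cannot be told apart from the genes they overlap, and pseudogenes cannot be told apart with certainty from their parents.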

How the data were processed

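RNA-seq libraries of mouse chondrocytes, 3 MC and 3 MM, were analysed as 1 of the 2 species of the series. Libraries were grouped by their labels. The authors' mouse table gives raw read counts per Ensembl gene, as deposited whole numbers without normalization, and FPKM that the authors made from these counts, gene length and library total. The submitters' processing notes name HISAT2, HTSeq 0.11.2 and GRCm38, with no roles, and whether counting used the strand was not given. Of the 28603 identifiers, 28595 are in GENCODE M21, 28348 under the same symbol.

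The deposited counts were fitted with edgeR 4.0.16 (R 4.3.3), using filterByExpr, TMM scaling, glmQLFit and glmQLFTest, with Benjamini-Hochberg adjustment of P over the 14774 genes tested. Calls needed an adjusted P below 0.05, a log2 fold change of 0.85 or more in size and an FPKM of at least 1 in 1 mouse library. Alternatives used DESeq2 1.42.0, limma 3.58.1 (pseudocount 1), other scalings, filters and thresholds, and each library left out. On simulated data, 200 genes were changed by a log2 fold change of 1.5, equally up and down, at a common dispersion. At the adjusted P alone, edgeR recovered 194 of the 196 changed genes it tested, and 6.28% of its calls were false. With few and balanced changes, this simulation cannot speak to the shift in composition seen here. Standard errors of genes with few counts understate their uncertainty. A group at 0 counts was given a floor of 3 counts over the group, and groups with 1 to 3 counts a ratio with an exact 95% interval, scaled by library size, covering counting error only.

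The 51 gene lists hold 1448 genes, of which 1271 were tested, and 30 list symbols were not found. The members and lists were chosen with earlier results of these data known, so they lend no independent support. Genes named are the 10 largest rises and falls among called genes whose mean FPKM reached 10 in either group without overlap between libraries, key members of each list with its 3 largest rises and falls at an FPKM of at least 5, the 6 largest of each kind without a rat symbol match, and the 10 most abundant in each group. Overlap of exons with other genes on either strand, and the share of 50-base words found in transcripts of other genes, were computed from GENCODE M21. They are printed for some genes only, so a gene given without them may also share sequence. Rat samples, and promoters and proteins of mouse genes, were not analysed here, and some list members are not reported here by name.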

Additional observations from a re-analysis of the deposited data

How the results depend on the processing

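Of 298 named genes tested, none went from a rise to a fall or back under the alternatives run, the fits with a library left out included. Values near 0 can change sign with the scaling. Fn1, not called, was fitted at 0.12 although its share of the counts was lower in every MM library than in any MC library. Leaving out each library in turn gave between 1871 and 1893 rises and between 1885 and 1926 falls. Between 1815 and 1826 of the rises and between 1843 and 1862 of the falls were shared with the fit on all libraries. Among the named genes, the calls lost in this way were those of Psmb8 without MC2, Sox5 without MM3, Hoxc10 without MM1 and Lyz2 without MM2. The replicate numbers recur in both groups but nothing ties them to an animal or day. Deviations of MC and MM libraries from their group means correlated between -0.01 and 0.02 across genes, so the numbers were not read as pairs, and with the replicate block 1862 genes rose and 1917 fell, of which 1859 and 1915 were shared with the fit without it.

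Limma on log2(FPKM + 1) gave 1154 rises, 3607 genes higher at the adjusted P alone and 217 rises among genes without a rat symbol match. This fit uses FPKM, which are not TMM scaled, and the pseudocount shrinks low genes. Without the FPKM criterion 514 genes without a rat symbol match fell. The share of rises among all calls was 49.3%, against 34.6% when scaled by library size alone and 39.0% with limma. Library size alone shifts the median log2 fold change of all genes by -0.28, and 9 named genes then lost their call, Sox5, Chst11, Mef2d and Rspo3 among them. Under it the medians of 6 lists changed sign, namely those of hyaluronan genes, BMP, GDF and TGF-β signalling, the IGF and FGF axis, the BCL2 family, endoplasmic reticulum folding and endothelial markers. Depth limits statements on genes with few counts, such as Tnf and Ptprc, where a difference may be too small to detect.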

Other observations

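Clock genes changed in both directions. Of 20 core clock genes tested, 10 rose and 4 fell, with a median log2 fold change of 0.91. Arntl, which encodes the activator BMAL1, had FPKM of 1.51, 1.19 and 1.24 in MC1 to MC3 and of 7.34, 7.78 and 8.06 in MM1 to MM3 (log2 fold change 2.83 ± 0.07 SE, adjusted P = 2.88e-42), and Ciart, a repressor, rose from 2.76 to 12.7 FPKM (2.48). Dbp and Tef, output factors that BMAL1 activates, moved the other way, Dbp with FPKM of 8.88, 8.77 and 8.52 in MC1 to MC3 and of 1.08, 1.08 and 1.11 in MM1 to MM3 (log2 fold change -2.72 ± 0.11 SE, adjusted P = 1.44e-31) and Tef with a log2 fold change of -1.43. Per3 fell from 7.84 to 1.25 FPKM (-2.36). Nr1d1, which represses Arntl, was not called (0.43).

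Hox genes mark position along the body axis. Of 24 Hox genes tested, 1 rose, 4 fell and 19 were not called, with a median of -0.31. Hoxa10 had FPKM of 53.9, 53.1 and 55.1 in MC1 to MC3 and of 19.6, 21.1 and 20.2 in MM1 to MM3 (log2 fold change -1.14 ± 0.04 SE, adjusted P = 3.33e-35). Hoxc10 fell with a log2 fold change of -0.89, which was -0.78 without MM1, below the threshold.

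Imprinted genes, chosen after their values were seen, were on the list of large falls. H19 and Mest are among the 10 largest falls, and Igf2 and Cdkn1c fell in the lists above. Mest had FPKM of 309.5, 305 and 312 in MC1 to MC3 and of 4.27, 4.54 and 4.84 in MM1 to MM3 (log2 fold change -5.81 ± 0.04 SE, adjusted P = 8.78e-75). Igf2 had FPKM of 9.93, 10.1 and 11.4 in MC1 to MC3 and of 0.645, 0.616 and 0.7896 in MM1 to MM3 (log2 fold change -3.67), with 64.5% of its exonic bases in common with another gene. Igf2r moved the other way, from 83.4 to 134 FPKM (0.97). Imprinted genes outside the lists were not examined.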
